A study of Mus musculus with 6 samples.

Results

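The genes described here are the enzymes that remove acetyl and methyl groups from lysines: the zinc-dependent histone deacetylases (Hdac), the sirtuins (Sirt) and the lysine demethylases (Kdm). They were taken by symbol, as every gene named Hdac, Sirt or Kdm followed by a digit, with Kdm5c, Kdm5d and Kdm6a left out, which gave 33 of the 24054 genes of the expression table. Of these 33 members 11 were Hdac, 7 Sirt and 15 Kdm genes. Their RNA was measured by RNA-seq in c-Kit+ splenocytes, the spleen cells that carry the stem and progenitor cell receptor c-Kit, of 6 mice with 1 library per mouse. The 3 AML mice (acute myeloid leukaemia) were moribund and carried Flt3ITD/ITD, Dnmt3afl/- and MxCre. The 3 MPN mice (myeloproliferative neoplasm) served as controls and carried Flt3ITD/ITD and Dnmt3afl/fl, with no Cre in their titles. All 6 mice therefore shared an internal tandem duplication in Flt3, the receptor for the growth factor FLT3 ligand, on both copies of the gene. In the AML mice 1 allele of Dnmt3a, which encodes a de novo DNA methyltransferase, was null and the other floxed. MxCre is Cre recombinase driven by the interferon-inducible Mx1 promoter, which is active in blood and in other tissues. The sources used here do not state whether it was induced, how old the mice were or how far the floxed allele was removed. Genotype, Cre and disease state cannot be told apart in this design.

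Histone deacetylases act mostly inside multiprotein corepressors. Of class I, Hdac1, Hdac2 and Hdac3 sit in the nuclear NuRD, Sin3, CoREST and NCoR complexes. Class IIa enzymes shuttle between cytoplasm and nucleus with MEF2 factors. Sirtuins use NAD and are spread over nucleus, cytoplasm and mitochondria. Lysine demethylases belong to the flavin-dependent LSD pair or to the JmjC oxygenases, which use iron and 2-oxoglutarate. In blood the LSD enzyme Kdm1a works with CoREST and the repressors Gfi1 and Gfi1b, and it has been studied as a drug target in myeloid leukaemia.

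Dnmt3a itself averaged 12.6 ± 1.02 TPM (a level per transcript length and per library) in AML mice and 32.2 ± 2.53 TPM in MPN mice (SD, n = 3 each), 39.3% of the MPN level, with a limma adjusted p of 0.000879. An exact two-sided permutation test gave p = 0.1, the smallest that 3 mice against 3 can give. Relative sequencing depth ranged over 0.739 to 1.29 in AML and 0.936 to 1.04 in MPN libraries, and MPN replicate 1 came from another sequencing run than the other 5. By Xist, 2 of 3 AML and 0 of 3 MPN mice were female. The purified cells differed in other cell types' markers. Mature neutrophil markers were lower in AML for 7 of 9 tested genes, with a summed 6885 to 20615 TPM in AML against 30426 to 48248 TPM in MPN mice. T and NK cell markers were lower for 8 of 9 (5.54 to 8.22 TPM in AML, 181 to 296 TPM in MPN), macrophage markers for 7 of 8 (28.1 to 69.7 TPM and 165 to 289 TPM), B cell markers for 5 of 6 (27.7 to 37.0 TPM and 79.2 to 105 TPM), dendritic cell markers for 5 of 10 (368 to 1692 TPM and 1862 to 2401 TPM) and erythroid markers for 2 of 10 (48.8 to 350 TPM and 238 to 509 TPM). The median log2 fold change of TPM + 1, AML minus MPN, was -1.42 for the dendritic cell list and -2.15 for the erythroid list. In MPN mice the T and NK markers Klrd1, Cd8a and Cd4 averaged 139, 47.1 and 25.8 TPM. The other tested markers of that list, Cd3d, Cd3e and Cd3g among them, averaged 1.51 to 3.53 TPM there. In the B cell list Cd79b, which did not pass, averaged 28.9 TPM in AML and 32.6 TPM in MPN mice. The other tested B cell markers averaged 0.267 to 0.83 TPM in AML and 2.9 to 18.7 TPM in MPN mice. Stem and progenitor markers were higher in AML for 7 of 10 (3249 to 7731 TPM in AML, 2769 to 3755 TPM in MPN), and megakaryocyte markers for 3 of 7 (91.3 to 128 TPM and 38.5 to 70.2 TPM). Mpo and Elane had the highest means of the stem and progenitor list and did not pass. They averaged 2577 and 1213 TPM in AML and 1514 and 986 TPM in MPN mice. No marker was at 0 in all mice of a group. Their part in the members' differences was not tested, and fewer cells of a type and less RNA per cell cannot be told apart in bulk RNA.

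Most of the members were expressed at a solid level and differed little between the groups. Averaged over all 6 mice, 27 of the 33 members reached 10 TPM and 9 reached 50 TPM, while Kdm4d, a demethylase best known from testis, stayed at 0.01 to 0.07 TPM and was not tested. Of the 32 members tested, 6 passed the threshold of an adjusted p of 0.05 in limma, or 18.8%, where 30.1% of all 12223 tested genes did. Sirt3, Hdac2 and Kdm1a rose in AML, 3 of 32 where the share over all tested genes was 20.1%. Kdm7a, Kdm3b and Kdm2a fell, 3 of 32 where the share was 10%. For 15 of the 32 members, or 46.9%, the AML and MPN mice did not overlap, against 50.9% of all tested genes. The median log2 fold change, taken of TPM + 1, was 0.07 for the members and 0.13 for all tested genes, and the median absolute log2 fold changes were 0.28 and 0.35. Only Sirt3, Kdm7a and Hdac9 differed by 2-fold or more on that scale, 9.38% of the members tested where 15.2% of all tested genes did.

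**Figure D1:**
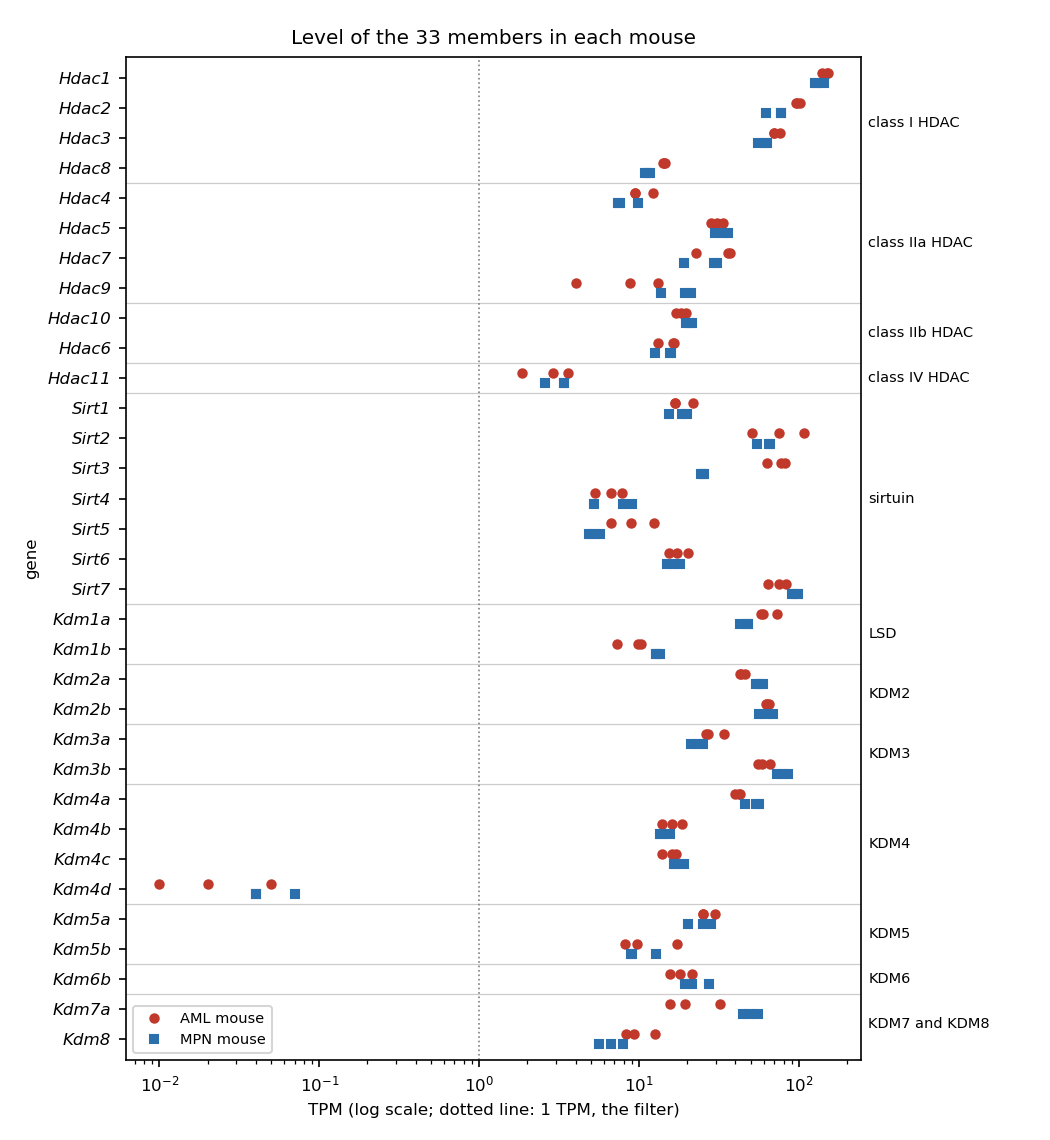
TPM on a log axis of the 33 members in each AML mouse (circles) and each MPN mouse (squares), grouped by enzyme class; the dotted line marks 1 TPM, the filter for testing. Sirt3 shows the widest separation upwards, Kdm7a lies lower in AML mice, and Kdm4d lies at 0.01 to 0.07 TPM.

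Scaling moved the balance of calls. When the median of all tested genes was made equal in the libraries, 9 of 32 members passed, or 28.1%, where 30.2% of all genes did. The count of members that rose stayed at 3 (17.8% of all genes rose), and 6 fell (12.4% of all genes fell), with Kdm1b, Kdm4a and Sirt7 added to those that fell. This scaling took the median log2 fold change of all genes to 0.05 and that of the members to -0.01. In the authors' RPKM values, a level per gene length, 5 of 31 members passed, or 16.1%, where 31.3% of all genes did. With a term for sex, chosen after seeing the data, only Sirt3 of 32 members passed, or 3.12%, where 9.88% of all genes did. That fit sets AML replicate 3, the male AML mouse, against the MPN group, with the spread of that mouse taken to equal that of the rest. Without MPN replicate 1, which leaves a single sequencing run, 2 of 32 members passed in limma, Sirt3 (log2 fold change 1.53, adjusted p = 0.00264) and Kdm7a (log2 fold change -1.10, adjusted p = 0.0457).

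**Figure D2:**
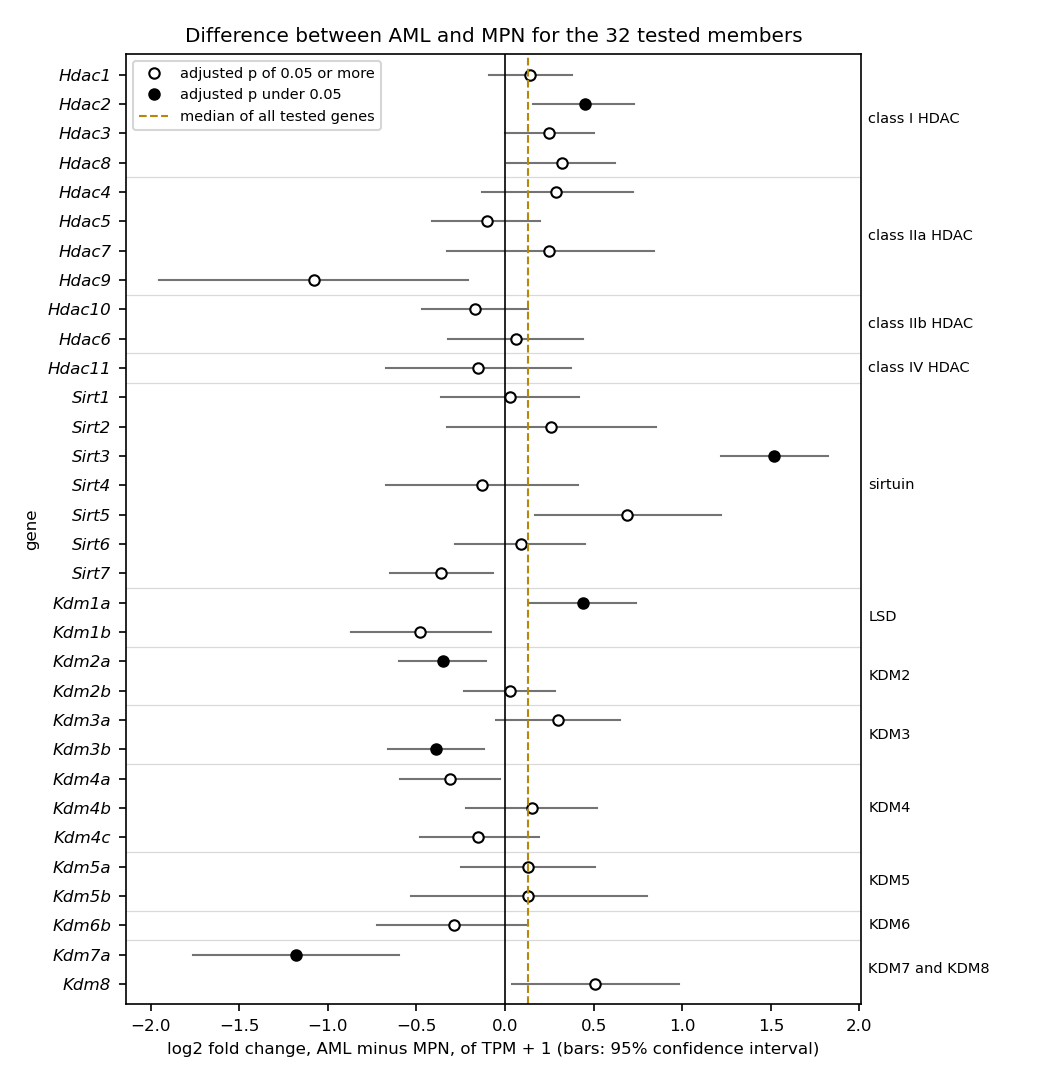
Log2 fold change of TPM + 1, AML minus MPN, for the 32 tested members with 95% confidence intervals from limma; filled points have an adjusted p under 0.05 and the dashed line is the median of all tested genes, 0.13. Sirt3 lies at 1.52 and Kdm7a at -1.18, and 26 members have open points.

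Among the members Hdac1 had the highest level in both groups, 138.14 to 150.66 TPM in AML and 125.20 to 142.19 TPM in MPN mice, apart from its next neighbour in each. The order below it differed. In AML mice Hdac2 came next with 95.34 to 101.49 TPM, and its range overlapped that of Sirt2. From Sirt2 at a mean of 77.7 TPM down to Kdm3b at 60.0 TPM, each of the 7 members overlapped its neighbour in that order. In MPN mice Sirt7 stood second with 89.90 to 98.44 TPM, apart from Hdac1 above and from Kdm3b below, which had 72.53 to 84.63 TPM. Sirt3 had rank 5 of 33 in AML and rank 14 in MPN mice, and Kdm7a had rank 16 in AML and rank 10 in MPN mice. In RPKM Hdac1 kept rank 1 in both groups and Sirt7 rank 2 in MPN mice, while Sirt3 had rank 7 in AML and rank 18 in MPN mice and Kdm7a rank 18 in AML and rank 8 in MPN mice. The lowest of the tested members was Hdac11, the single class IV enzyme, with 1.84 to 3.58 TPM in AML and 2.57 to 3.41 TPM in MPN mice.

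The sequences around the start sites of Sirt3, Kdm7a, Hdac2 and Kdm1a are shown first for reference. RefSeq promoter windows on GRCm38.p6, 250 bases before to 50 bases after a start, were at hand for 25 of the 33 members. Sirt3 and Kdm7a are shown because they had the largest called rise and fall, and Hdac2 and Kdm1a because they were the other members that rose. For Kdm3b and Kdm2a, the other members that fell, no window was at hand. Sirt3 has a pair of annotated starts, at chr7:140882260-140882559 and chr7:140881820-140882119, both on the minus strand. The others lie at chr6:39206724-39207023 (Kdm7a, minus strand), chr10:36974294-36974593 (Hdac2, plus strand) and chr4:136602674-136602973 (Kdm1a, minus strand). Capitals mark matches, on either strand, to any of 6 short motifs, and the share of all 32841 windows that hold each is given after them.
Sirt3, upstream start: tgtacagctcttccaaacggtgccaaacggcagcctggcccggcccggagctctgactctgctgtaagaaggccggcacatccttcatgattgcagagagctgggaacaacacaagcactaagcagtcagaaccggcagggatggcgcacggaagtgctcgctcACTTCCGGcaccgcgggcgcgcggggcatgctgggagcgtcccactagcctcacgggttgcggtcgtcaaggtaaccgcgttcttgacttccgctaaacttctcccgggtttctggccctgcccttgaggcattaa
Sirt3, downstream start: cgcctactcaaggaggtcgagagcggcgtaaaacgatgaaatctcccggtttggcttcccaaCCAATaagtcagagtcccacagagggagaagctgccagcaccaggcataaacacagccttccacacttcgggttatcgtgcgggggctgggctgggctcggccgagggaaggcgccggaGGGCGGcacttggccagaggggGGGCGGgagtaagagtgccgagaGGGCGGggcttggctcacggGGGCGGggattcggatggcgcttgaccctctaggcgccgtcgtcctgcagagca
Kdm7a: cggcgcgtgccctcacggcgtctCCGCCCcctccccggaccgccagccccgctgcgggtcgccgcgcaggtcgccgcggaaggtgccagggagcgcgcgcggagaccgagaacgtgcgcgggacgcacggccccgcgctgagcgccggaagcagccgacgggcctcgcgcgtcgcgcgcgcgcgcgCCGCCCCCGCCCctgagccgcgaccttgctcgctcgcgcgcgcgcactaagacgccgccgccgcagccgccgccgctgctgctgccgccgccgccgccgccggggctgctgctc
Hdac2: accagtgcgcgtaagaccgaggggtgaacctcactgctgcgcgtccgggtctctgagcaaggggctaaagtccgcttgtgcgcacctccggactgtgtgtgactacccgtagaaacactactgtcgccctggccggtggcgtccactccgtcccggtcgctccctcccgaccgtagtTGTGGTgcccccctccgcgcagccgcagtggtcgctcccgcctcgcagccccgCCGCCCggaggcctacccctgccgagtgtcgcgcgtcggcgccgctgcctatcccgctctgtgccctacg
Kdm1a: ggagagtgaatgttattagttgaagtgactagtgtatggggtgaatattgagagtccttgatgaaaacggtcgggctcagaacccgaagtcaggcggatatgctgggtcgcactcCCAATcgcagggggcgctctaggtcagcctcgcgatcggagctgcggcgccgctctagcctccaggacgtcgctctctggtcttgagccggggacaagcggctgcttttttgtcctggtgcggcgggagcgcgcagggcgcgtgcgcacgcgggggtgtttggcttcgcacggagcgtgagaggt

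The ETS factor motif CCGGAAGT was in 3.89% of all windows and in the upstream window of Sirt3, and in none of the other 4 windows printed. The GC box GGGCGG was in 35.7% of all windows; it had 4 matches in the downstream window of Sirt3, 3 in Kdm7a, of which a pair adjoin without overlap, and 1 in Hdac2. The CCAAT box CCAAT was in 37.4% of all windows, in the downstream window of Sirt3 and in that of Kdm1a. The RUNX factor motif TGTGGT was in 16.8% of all windows and in that of Hdac2. The E-box CACGTG (7.15% of all windows) and the STAT factor motif TTCNNNGAA (8.3%) had no match in these windows. No matches to different motifs overlapped. The Kdm7a window held 65 CpG sites, the most of the 37 windows of the members, whose median was 20, beside a median of 7 over all windows. Windows of the other printed genes held 23 and 24 (Sirt3), 36 (Hdac2) and 29 (Kdm1a) CpG sites, and the windows of Hdac9 held 0 and 3. Methylation was not measured here, and matches and CpG counts describe these letters only.

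Class I deacetylases had the highest sum of any deacetylase class, and 1 of 4 rose, where 20.1% of all tested genes did. Hdac1, Hdac2 and Hdac3 are the nuclear catalytic subunits of the corepressor complexes. Hdac2, the partner of Hdac1 in NuRD, Sin3 and CoREST, had 97.14, 101.49 and 95.34 TPM in AML mice against 77.53, 76.72 and 61.90 TPM in MPN mice. All AML mice lay above all MPN mice. Its log2 fold change was 0.45 with an SE of 0.12 and a limma adjusted p of 0.0298. The call was lost, with adjusted p between 0.0576 and 0.232, without AML replicate 2, without any single MPN mouse, and with the term for sex. Hdac1 itself averaged 146 ± 6.77 TPM in AML and 132 ± 8.86 TPM in MPN mice (SD, n = 3 each), and its ranges overlapped. Hdac3, the catalytic subunit of NCoR and SMRT complexes, had 69.28 to 75.86 TPM in AML and 55.40 to 62.52 TPM in MPN mice, with an adjusted p of 0.112. Hdac8, a smaller class I enzyme that deacetylates cohesin, had 14.03 to 14.51 TPM in AML and 10.81 to 11.63 TPM in MPN mice, with an adjusted p of 0.105; it is X-linked. Neither overlapped between the groups, and neither passed the test. The summed class I level was 329, 343 and 317 TPM in AML and 280, 292 and 254 TPM in MPN mice. Within that sum Hdac2 took 29.5, 29.6 and 30.1% in AML and 27.7, 26.2 and 24.4% in MPN mice, and Hdac1 took 45.2, 44.0 and 43.5% in AML and 46.2, 48.6 and 49.3% in MPN mice, with no overlap in either share.

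Class IIa deacetylases, which are signal-regulated partners of MEF2 factors, had 0 of 4 members past the threshold in limma. At an unadjusted p under 0.05 there was 1 of 4, beside 5326 of all 12223 tested genes. Hdac9 had the largest difference, with 4.04, 8.78 and 13.16 TPM in AML mice against 19.32, 21.15 and 13.67 TPM in MPN mice. The groups did not overlap, but AML replicate 3 and MPN replicate 3 lay close together. Its log2 fold change was -1.08 with an SE of 0.37 and a limma adjusted p of 0.0632. It passed the threshold in 2 of 16 alternatives, without AML replicate 3 (adjusted p = 0.0182) and with array weights (adjusted p = 0.00553), and not in the other 14. Without AML replicate 1 its log2 fold change was -0.67 (adjusted p = 0.0878) and with the term for sex -0.41 (adjusted p = 0.607), both under 2-fold. It was also under 2-fold without MPN replicate 2 (-0.96), in RPKM (-0.84) and with a pseudocount of 5 (-0.80). Hdac9 took 4.97, 10 and 17.4% of the class IIa sum in AML and 20.7, 24.1 and 17.9% in MPN mice. Hdac4 averaged 10.4 ± 1.6 TPM in AML and 8.29 ± 1.34 TPM in MPN mice, Hdac5 30.6 ± 2.63 and 33 ± 3.1 TPM, and Hdac7, known for its role in lymphoid development, 31.8 ± 8.04 and 26.5 ± 6.41 TPM (SD, n = 3 each). In these 3 genes the groups overlapped, and adjusted p ranged over 0.248 to 0.564. Exons of Hdac7 overlap those of Slc48a1 on the other strand, whose log2 fold change was 0.68 (adjusted p = 0.0246, or up to 0.0821 without AML replicate 2 or any single MPN mouse). With the term for sex the log2 fold change of Slc48a1 was 0.33.

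The class IIb pair, of which Hdac6 is the X-linked cytoplasmic tubulin deacetylase and Hdac10 a polyamine deacetylase, and Hdac11 overlapped between the groups. Hdac6 averaged 15.3 ± 1.85 TPM in AML and 14.6 ± 1.76 TPM in MPN mice, with a log2 fold change of 0.06 that was -0.03 under median scaling and under quantile normalization. Hdac10 averaged 18.2 ± 1.27 TPM in AML and 20.6 ± 0.960 TPM in MPN mice. Hdac11 averaged 2.78 ± 0.878 TPM in AML and 3.13 ± 0.482 TPM in MPN mice. Adjusted p for these 3 genes ranged over 0.349 to 0.805.

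Sirt3 had the largest difference of all members. It encodes the main deacetylase of the mitochondrial matrix, which acts on enzymes of oxidative metabolism. The gene lies at chr7:140863666-140882309 on the minus strand of GRCm38. It had 81.77, 76.87 and 62.99 TPM in AML mice against 25.46, 25.14 and 24.26 TPM in MPN mice. The lowest AML mouse was far above the highest MPN mouse, and the MPN mice lay close together. The means were 73.9 ± 9.74 TPM in AML and 25.0 ± 0.621 TPM in MPN mice (SD, n = 3 each), a ratio of 2.96. The log2 fold change was 1.52 with an SE of 0.13 and a limma adjusted p of 0.000406. The call held in 16 of 16 alternatives, with log2 fold changes of 1.30 to 1.63, and it was 1.30 with the term for sex (adjusted p = 0.00669). Of the tested genes, 407 had a larger rise.

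Values of the genes around Sirt3 are given because they could share reads with it. Its exons overlap those of Psmd13, a proteasome lid subunit, and Ric8 (now Ric8a), a chaperone of G protein alpha subunits, both on the other strand. The libraries were strand-specific per the labels, but the sources used here do not state the strand setting of the counting, so reads of such a pair cannot be told apart. Psmd13 had 129.39, 124.91 and 129.80 TPM in AML and 107.12, 111.97 and 108.33 TPM in MPN mice, a log2 fold change of 0.23 (limma adjusted p = 0.0946). Ric8 had 72.67, 83.71 and 78.64 TPM in AML and 58.19, 52.60 and 58.77 TPM in MPN mice, a log2 fold change of 0.46 (adjusted p = 0.0183). The call of Ric8 was lost in 5 of 15 alternatives, with adjusted p of 0.0557 to 0.143, under median scaling, without AML replicate 2, without MPN replicate 1 or 2 and with the term for sex. The groups did not overlap in either gene, and both log2 fold changes were smaller than that of Sirt3. The part of shared reads in these values was not tested. The upstream start of Sirt3 and the start of Psmd13 lie 85 bases apart on opposite strands, and their promoter windows share 184 bases. The expression table gives 1 value per gene, so the starts of Sirt3 were not compared.

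Of the other 6 sirtuins 0 passed the test in limma, and 2 had an unadjusted p under 0.05, Sirt5 and Sirt7. Such a p was found for 5326 of all 12223 tested genes. Sirt5, the mitochondrial desuccinylase, had 6.67, 12.32 and 8.93 TPM in AML mice against 5.68, 5.15 and 4.84 TPM in MPN mice. All AML mice lay above the MPN mice, and AML replicate 2 was highest. Its log2 fold change was 0.69 with an SE of 0.22 and an adjusted p of 0.0522, and it passed in 3 of 16 alternatives. Sirt7, a nuclear and nucleolar deacetylase, had 63.86, 75.13 and 83.31 TPM in AML mice against 95.86, 98.44 and 89.90 TPM in MPN mice. All AML mice lay below the MPN mice. Its log2 fold change was -0.36 with an SE of 0.12 and an adjusted p of 0.0669, or 0.0413 under median scaling. Exons of Sirt7 overlap those of Mafg on the same strand, whose log2 fold change was 0.51 (adjusted p = 0.14).

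Sirt2, the cytoplasmic tubulin deacetylase, varied most between AML mice among the sirtuins, with 50.82, 74.43 and 107.81 TPM in AML and 65.15, 65.95 and 54.76 TPM in MPN mice. The AML mice lay on both sides of the MPN mice, and the adjusted p was 0.456. Sirt1, the nuclear enzyme that deacetylates p53 and other regulators, averaged 18.3 ± 2.87 TPM in AML and 17.9 ± 2.25 TPM in MPN mice. Sirt6, a chromatin-bound deacetylase of DNA repair and glycolysis genes, averaged 17.6 ± 2.42 TPM in AML and 16.5 ± 1.59 TPM in MPN mice, and the mitochondrial Sirt4 6.6 ± 1.27 and 7.38 ± 1.94 TPM (SD, n = 3 each). Their groups overlapped. For Sirt1 the log2 fold change of 0.03 was -0.05 under median scaling and -0.06 under quantile normalization.

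The make-up of the sirtuin transcripts differed between the groups. Sirt3 held 33.3, 27.1 and 20.7% of the summed sirtuin TPM in AML mice and 10.8, 10.5 and 11.6% in MPN mice. Sirt7 held 26.0, 26.5 and 27.4% in AML and 40.6, 41.0 and 43.0% in MPN mice, the top share in each MPN mouse. Neither share overlapped between the groups. Among the 3 mitochondrial sirtuins Sirt3 held 87.2, 79.2 and 80.1% in AML and 65.1, 64.1 and 70.7% in MPN mice. In RPKM Sirt3 held 30.9, 23.4 and 18.3% of the sirtuin sum in AML and 9.68, 9.25 and 10.1% in MPN mice, also without overlap. Of 19 such shares computed over the classes, 11 did not overlap between the groups in TPM, and those 11 did not overlap in RPKM. Single-gene levels did not overlap for 50.9% of all tested genes, and shares of other gene sets were not computed. The shares of a class add up to a fixed whole, so they do not move independently. TPM and RPKM come from the same libraries.

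**Figure D3:**
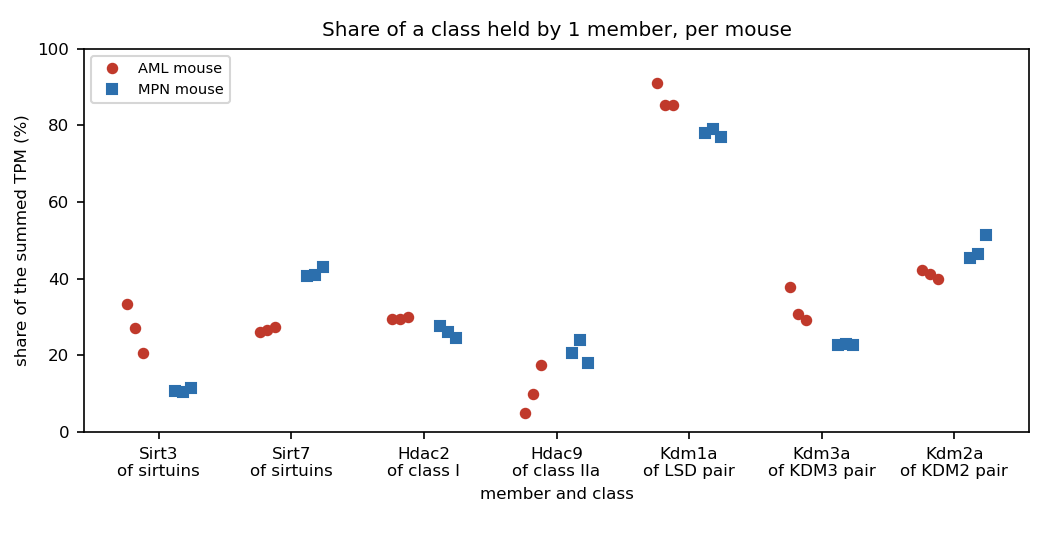
Share in percent of the summed TPM of a class that 1 member held in each AML mouse (circles) and each MPN mouse (squares). The 7 shares drawn are among the 11 of 19 whose groups do not overlap. Sirt3 held 20.7 to 33.3% of the sirtuins in AML and 10.5 to 11.6% in MPN mice.

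In the LSD pair 1 of 2 rose, and the other was lower by value. Kdm1a (LSD1), which removes mono- and dimethyl groups from lysine 4 of histone H3 within CoREST, had 72.70, 59.55 and 57.70 TPM in AML mice against 48.13, 48.07 and 42.69 TPM in MPN mice. The groups did not overlap, and AML replicate 1 was highest. The log2 fold change was 0.44 with an SE of 0.13 and a limma adjusted p of 0.0395. Kdm1b (LSD2), a paralogue known from the growing oocyte, had 7.30, 10.27 and 9.90 TPM in AML mice against 13.48, 12.74 and 12.82 TPM in MPN mice. All AML mice were below the MPN mice, with a log2 fold change of -0.48, an SE of 0.17 and an adjusted p of 0.0689, or 0.0434 under median scaling. Kdm1a made up 90.9, 85.3 and 85.4% of the pair in AML and 78.1, 79.0 and 76.9% in MPN mice. Exons of Kdm1b overlap those of Dek on the other strand, which had a log2 fold change of 0.01. The call of Kdm1a was lost, with adjusted p of 0.0557 to 0.362, without the trend, without AML replicate 1 or 2, without any single MPN mouse and with the term for sex.

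**Figure D4:**
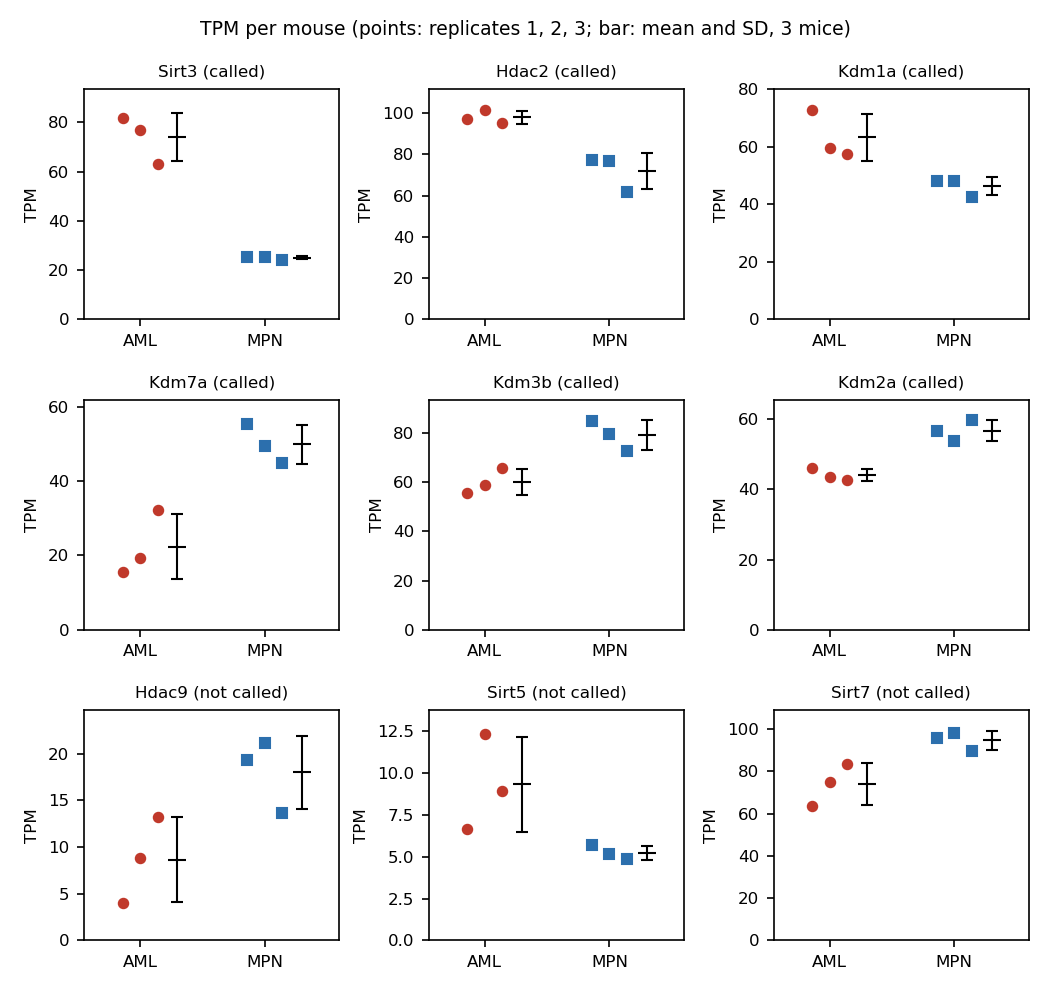
TPM in each AML and each MPN mouse for the 6 called members and for Hdac9, Sirt5 and Sirt7, with the mean and SD over 3 mice beside the points. In all 9 panels the groups do not overlap, and Sirt3 has 62.99 to 81.77 TPM in AML and 24.26 to 25.46 TPM in MPN mice.

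Of the 12 JmjC demethylases tested, 3 fell and 0 rose in AML by limma, and Kdm7a fell most. At an unadjusted p under 0.05, 4 were lower and 1 was higher, where 5326 of all 12223 tested genes had such a p in either direction. Over all tested genes 10% fell and 20.1% rose, and with the term for sex 0 of the 12 passed. Kdm7a, which removes dimethyl marks from lysines 9 and 27 of histone H3 and reads trimethylated lysine 4 with its PHD finger, lies at chr6:39136623-39206789 on the minus strand of GRCm38. It had 15.62, 19.45 and 32.12 TPM in AML mice against 55.21, 49.56 and 44.80 TPM in MPN mice. The groups did not overlap, and AML replicate 3 lay nearest to the MPN mice. The means were 22.4 ± 8.64 TPM in AML and 49.9 ± 5.21 TPM in MPN mice (SD, n = 3 each), so AML mice had 44.9% of the MPN level. The fitted log2 fold change was -1.18 with an SE of 0.25 and a limma adjusted p of 0.0125, and 734 tested genes had a larger fall. The call held in 15 of 16 alternatives, the exception being the term for sex, where it was -0.61 with an adjusted p of 0.13. The antisense gene 4930599N23Rik, whose exons overlap those of Kdm7a, had 0.67, 0.39 and 0.36 TPM in AML and 1.19, 1.65 and 1.0 TPM in MPN mice.

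In the KDM2 pair, CpG-binding enzymes for lysine 36 of histone H3, 1 of 2 fell. Kdm2a had 46.14, 43.53 and 42.84 TPM in AML mice against 56.62, 53.85 and 59.85 TPM in MPN mice. All AML mice were below the MPN mice, with a log2 fold change of -0.35, an SE of 0.10 and a limma adjusted p of 0.0401. Kdm2b, which recruits a variant Polycomb complex to CpG islands, had 61.92 to 64.72 TPM in AML and 56.46 to 68.20 TPM in MPN mice, with an adjusted p of 0.877. Its log2 fold change of 0.03 was -0.06 under median scaling and -0.07 under quantile normalization. Kdm2a made up 42.2, 41.3 and 39.8% of the pair in AML and 45.4, 46.4 and 51.5% in MPN mice. The call of Kdm2a was lost in RPKM (adjusted p = 0.0743), without the trend, without AML replicate 2 or 3, without any single MPN mouse, and with the term for sex, with adjusted p up to 0.197.

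In the KDM3 pair, which removes methyl groups from lysine 9 of histone H3, 1 of 2 fell. Kdm3b had 55.62, 58.69 and 65.68 TPM in AML mice against 84.63, 79.35 and 72.53 TPM in MPN mice. The groups did not overlap, and its log2 fold change was -0.39 with an SE of 0.12 and a limma adjusted p of 0.0409. Kdm3a, a hypoxia-responsive enzyme, had 33.96, 26.01 and 27.03 TPM in AML mice against 24.92, 23.65 and 21.18 TPM in MPN mice. All AML mice were above the MPN mice, but the adjusted p was 0.16. Kdm3a made up 37.9, 30.7 and 29.2% of the pair in AML and 22.7, 23.0 and 22.6% in MPN mice, with no overlap. The call of Kdm3b was lost, with adjusted p of 0.0521 to 0.40, without the trend, without AML replicate 1 or 2, without any single MPN mouse and with the term for sex.

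The remaining JmjC members did not pass the test. Kdm4a, which acts on trimethylated lysines 9 and 36 of histone H3, had 39.77 to 42.72 TPM in AML and 45.93 to 56.13 TPM in MPN mice, with an adjusted p of 0.0904, or 0.0181 under median scaling. Its relatives Kdm4b (16.1 ± 2.37 TPM in AML, 14.3 ± 1.11 TPM in MPN) and Kdm4c (15.7 ± 1.58 and 17.4 ± 1.35 TPM) overlapped between the groups. So did the lysine 4 demethylases Kdm5a (26.7 ± 2.77 TPM in AML, 24.5 ± 4.11 TPM in MPN) and Kdm5b (11.7 ± 4.90 and 10.2 ± 2.25 TPM), and the lysine 27 demethylase Kdm6b (18.3 ± 2.89 TPM in AML, 22.7 ± 4.07 TPM in MPN). The adjusted p of these 5 genes ranged over 0.249 to 0.746. Kdm8, a JmjC oxygenase also known as Jmjd5, had 12.51, 9.34 and 8.32 TPM in AML and 7.90, 6.66 and 5.61 TPM in MPN mice, which did not overlap, and its log2 fold change was 0.51 (adjusted p = 0.0951). The summed level of all Kdm members was 437, 420 and 438 TPM in AML and 518, 476 and 441 TPM in MPN mice.

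AML replicate 3 was often the AML mouse nearest to the MPN mice. Of the 15 members whose groups did not overlap it was nearest in 9, or 60%, and AML replicate 1 in 4 and AML replicate 2 in 2. Over all 6225 tested genes without overlap it was nearest in 50%. The 9 members included Sirt3, Kdm7a, Hdac2, Kdm1a, Kdm3b and Hdac9. This mouse was the male of the AML group and had the lowest relative depth, 0.739, and the part of either in these values was not tested.

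The partner genes of the class I deacetylases came from lists of complexes. In NuRD, 4 of 11 subunits rose and 1 fell, where 20.1% of all tested genes rose and 10% fell, with a median log2 fold change of 0.37 beside 0.13 for all tested genes. With the term for sex 0 of the 11 rose and 0 fell, where 9.88% of all tested genes passed in either direction, and the NuRD median was 0.26. Mta1, a scaffold that binds Hdac1 and Hdac2, had 122.19, 85.85 and 94.73 TPM in AML mice against 59.81, 60.07 and 53.70 TPM in MPN mice, with a limma adjusted p of 0.00854. Rbbp7, a histone-binding subunit, averaged 278 ± 23.4 TPM in AML and 197 ± 20.1 TPM in MPN mice (adjusted p = 0.0197, or 0.0607 without MPN replicate 1 and 0.0583 without MPN replicate 3). The remodelling ATPase Chd3 fell, with 29.74, 32.23 and 33.76 TPM in AML mice against 54.28, 50.84 and 49.12 TPM in MPN mice (adjusted p = 0.00514). In these 3 genes the groups did not overlap. In the Sin3 list 1 of 12 genes rose, the plant homeodomain subunit Ing1, with 48.6 ± 3.88 TPM in AML and 32.1 ± 2.13 TPM in MPN mice (adjusted p = 0.0108, or 0.0573 without MPN replicate 2), and the list's median was 0.08. In the NCoR and SMRT list 0 of 5 genes passed in limma, with a median of 0.14. An unadjusted p under 0.05 was found for 0 of the 5, beside 5326 of all 12223 tested genes.

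Of 8 genes of the list of CoREST subunits and Gfi1 factors, the partners of Kdm1a, 2 rose, or 25%. Over all tested genes 20.1% rose. Rcor2, a neural and stem cell paralogue of the CoREST scaffold Rcor1, had 15.44, 8.64 and 9.46 TPM in AML mice against 1.90, 1.57 and 1.11 TPM in MPN mice. Gfi1, the zinc finger repressor that recruits Kdm1a, had 67.72, 49.82 and 40.88 TPM in AML mice against 18.92, 13.95 and 13.13 TPM in MPN mice. In both genes every AML mouse was above every MPN mouse. The log2 fold changes were 2.24 with an SE of 0.25 for Rcor2 (limma adjusted p = 0.00107) and 1.71 with an SE of 0.22 for Gfi1 (limma adjusted p = 0.00184), and both were called in 16 of 16 alternatives. The other 6 genes of the list did not pass, and the list's median was 0.18. Rcor1 had an adjusted p of 0.508 and the erythroid Gfi1b, with 24.4 TPM in AML and 41.2 TPM in MPN mice on average, of 0.229.

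Counts of genes that feed or regulate the other classes stand beside 20.1% of all tested genes that rose and 10% that fell. Of 8 tested genes of the class IIa partner list, 1 rose, the transcription factor Mef2c, with 37.53, 28.32 and 29.75 TPM in AML mice against 22.00, 19.89 and 22.94 TPM in MPN mice. Its groups did not overlap, and its limma adjusted p was 0.0332. The call was lost in 7 of 16 alternatives, with adjusted p of 0.0562 to 0.284: under median scaling (0.0593) and quantile normalization, without AML replicate 1, without any single MPN mouse and with the term for sex. Of 8 tested NAD genes 2 fell. All but Nadk help to make NAD, the cosubstrate of sirtuins. Nampt, the rate-limiting enzyme of NAD salvage, had 33.44, 32.90 and 29.32 TPM in AML mice against 48.18, 66.56 and 46.63 TPM in MPN mice, with an adjusted p of 0.0153, which was 0.0509 without MPN replicate 2. Nadk, the kinase that turns NAD into NADP, averaged 133 ± 19.7 TPM in AML and 182 ± 9.41 TPM in MPN mice (adjusted p = 0.0345). The call of Nadk was lost in 7 of 16 alternatives, with adjusted p of 0.0507 to 0.388, without the trend, without AML replicate 1 or 2, without any single MPN mouse and with the term for sex. The other 6 NAD genes did not pass.

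Of the enzymes that write these marks, some rose and some fell. Of 10 histone acetyltransferases 1 rose and 2 fell, or 30%, where 30.1% of all tested genes passed in either direction. Kat2a (Gcn5) had 99.74, 68.73 and 73.16 TPM in AML mice against 49.73, 47.81 and 40.63 TPM in MPN mice, with a limma adjusted p of 0.0129, or 0.051 without MPN replicate 3. Kat6a (MOZ) averaged 33.9 ± 1.80 TPM in AML and 45 ± 2.11 TPM in MPN mice (adjusted p = 0.0322), and Ep300 43.4 ± 2.87 and 55.9 ± 3.19 TPM (adjusted p = 0.0448). Both calls were lost without AML replicate 2 or 3, without any single MPN mouse and with the term for sex, and that of Ep300 also without the trend, with adjusted p of 0.0527 to 0.129 for Kat6a and 0.0643 to 0.181 for Ep300. Of 21 lysine methyltransferases outside Polycomb 3 rose and 2 fell, or 23.8%, with a median log2 fold change of 0.05. Smyd2, a methyltransferase of the SET and MYND family, had 88.85, 64.39 and 66.91 TPM in AML mice against 33.46, 29.55 and 23.00 TPM in MPN mice (adjusted p = 0.00254), and its relative Smyd3 averaged 13.0 ± 2.70 TPM in AML and 5.58 ± 0.679 TPM in MPN mice (adjusted p = 0.00666). The MLL family members Kmt2c and Kmt2b, which methylate lysine 4 of histone H3, fell, with log2 fold changes of -0.50 (adjusted p = 0.0378) and -0.47 (adjusted p = 0.0369). Both calls were lost without AML replicate 2 or 3, without MPN replicate 1 or 2 and with the term for sex, with adjusted p of 0.0763 to 0.211 for Kmt2c and 0.0859 to 0.139 for Kmt2b. With the term for sex, of the genes named here from the lists Rcor2, Gfi1, Smyd2 and Hr, a JmjC protein described next, kept an adjusted p under the threshold.

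Beside 10% of all tested genes, 1 of 11 JmjC proteins outside the symbol rule fell, or 9.09%. It was Hr (hairless), named after its values were seen, which averaged 0.353 TPM in AML and 4.11 TPM in MPN mice. Its log2 fold change was -1.89 (limma adjusted p = 0.00173). The AML mean lay under 1 TPM, so Hr entered the test by its level in MPN mice. It was called in each of the 14 alternatives that tested it, which did not include the 5 TPM filter or the RPKM values. Those alternatives use the same mice and are no separate support. The list's median was -0.05. Jmjd1c and Phf8, relatives of the KDM3 and KDM7 members, had adjusted p of 0.305 and 0.435.

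**Figure D5:**
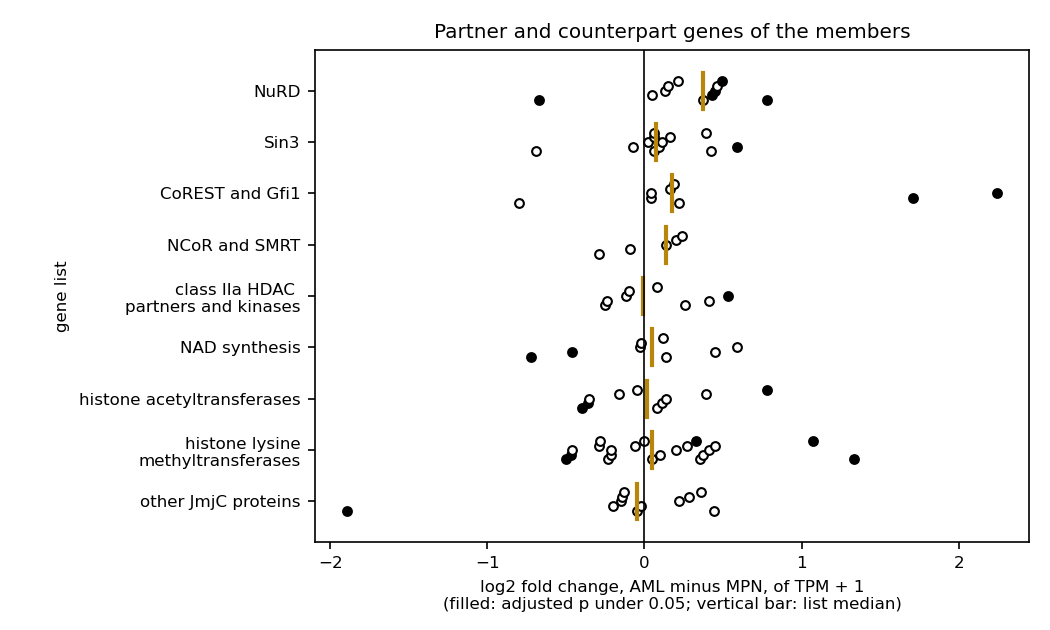
Log2 fold change of TPM + 1, AML minus MPN, of each tested gene in the 9 lists of partners and counterparts (points), with filled points for an adjusted p under 0.05 and a vertical bar at the median of each list. NuRD has the highest median, 0.37, and Rcor2 at 2.24 and Gfi1 at 1.71 stand at the right of the CoREST row.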

How the data were processed

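Poly-A RNA of c-Kit+ splenocytes from 3 AML and 3 MPN mice had been sequenced, 1 library each. The authors deposited TPM by gene symbol, which per the file headers is gene-level RSEM output, and RPKM by Ensembl identifier, where all 33 members matched. Per the submitters' processing notes TopHat2, RSEM, Bowtie2, mm9 and mm10 were involved, without roles or versions. Counts were not analysed here; TPM keeps no depth, and relative depth was read from the steps of low RPKM values. The 27 symbols that a spreadsheet had turned into dates were tested but not named.

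The 12223 genes that reached 1 TPM in 3 or more of the 6 libraries were compared as log2(TPM + 1) in R 4.3.3 by the moderated test of limma 3.58.1, trend on, two-sided, with Benjamini-Hochberg adjustment over all of them and a threshold of 0.05. The scale understates changes of low genes. P-values measure the spread between these mice. Replicate numbers follow accession order and pair no mice. The members, gene lists and tests were chosen with earlier results of these data known. All members are named; in each list the 2 largest changes in each direction past the threshold with a mean of at least 5 TPM in the higher group are named. Gene positions come from GENCODE M21 on GRCm38, and promoter sequences from RefSeq on GRCm38.p6; the sources used here do not tie a build to either table. Alternatives were each mouse left out in turn, array weights, no trend, the RPKM table, quantile and median scaling, other filters (none, or 5 TPM) and other pseudocounts (5 or 0.1). The fit with a sex term was chosen once the data had been seen. The fit was tested on simulated data.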

Additional observations from a re-analysis of the deposited data

How the results depend on the processing

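Calls over all tested genes numbered 3678 (2454 higher and 1224 lower in AML), against 2009 to 3705 with 1 mouse left out (1291 to 2303 higher, 718 to 1402 lower), 1208 with the term for sex (673 higher, 535 lower) and 2131 lower with array weights, whose estimate stopped before it converged. Of the members 6 passed (3 higher, 3 lower), against 2 to 7 with 1 mouse left out (1 to 3 higher, 1 to 4 lower), 14 with array weights (7 higher, 7 lower), 1 with the term for sex (1 higher, 0 lower), 6 lower under median scaling and under quantile normalization, and 1 lower without the trend. The lowest member counts with 1 mouse left out were 2, without AML replicate 2 or any single MPN mouse. Sirt3 was called in 16 of 16 alternatives and Kdm7a in 15. Dnmt3a passed in all 16. Changes of sign occurred only in members that were not called. Under median scaling the log2 fold change was -0.03 for Hdac6, -0.06 for Kdm2b and -0.05 for Sirt1, and under quantile normalization -0.03, -0.07 and -0.06 for the same genes. With array weights it was 0.06 for Hdac5 and -0.10 for Sirt1, and with the term for sex -0.19 for Hdac7, -0.27 for Kdm5b and -0.09 for Sirt1. With 1 mouse left out it ranged over -0.30 to 0.04 for Hdac11, -0.04 to 0.16 for Hdac6, -0.04 to 0.09 for Kdm2b, -0.00 to 0.23 for Kdm5a, -0.16 to 0.33 for Kdm5b, -0.09 to 0.10 for Sirt1, -0.01 to 0.53 for Sirt2, -0.33 to 0.01 for Sirt4 and -0.01 to 0.17 for Sirt6. The causes were not tested. Replicate numbers only name mice, so no paired analysis was possible because the labels pair none. Read depth is unknown in TPM, so precision rests on 3 mice per group.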

Other observations

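Of the genes that start close to a member on the other strand 4 have values that enter no comparison above, and 2 of them rose. Rell2 starts 63 bases from Hdac3 and had 6.31, 5.64 and 7.07 TPM in AML mice against 2.58, 2.54 and 2.07 TPM in MPN mice, with a limma log2 fold change of 1.11 (adjusted p = 0.00344), and it was called in 16 of 16 alternatives. Dnajc12 starts 739 bases from Sirt1 and had 6.08, 5.71 and 4.28 TPM in AML mice against 3.44, 3.28 and 3.04 TPM in MPN mice, with a limma log2 fold change of 0.57 (adjusted p = 0.0464). That call was lost in 10 of 15 alternatives, with adjusted p of 0.0534 under median scaling and 0.484 with the term for sex. Cwc15, which starts 135 bases from Kdm4d, had a log2 fold change of 0.06 (adjusted p = 0.656), and Ankrd24, 743 bases from Sirt6, one of 0.38 (adjusted p = 0.264). Neither Hdac3, Sirt1 nor Sirt6 passed the test, and Kdm4d was not tested.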
